A study of Mus musculus with 4 samples.

Results

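Kinesin genes encode the motor proteins that use ATP to move along microtubules or to take them apart. The genes described here are the kinesin superfamily as the array's annotation names it, that is, every row with exactly 1 gene symbol of the form Kif plus a number, with or without a letter a, b or c, or Kifc plus a digit. The rule found 37 genes among 30142 genes with such a row, and each had a single row. By their textbook roles, and with earlier results of these data known, they were sorted into 13 mitotic kinesins, 13 transport kinesins and 11 others. Cells were primary mouse keratinocytes of 2 genotypes. The Glut1-deficient cells came from mice deficient in Glut1, a glucose transporter encoded by Slc2a1, specifically in their keratinocytes, and the wild-type (WT) cells came from wild-type mice. All mice were C57BL/6J and 1 week old, 4 of each genotype, and the labels name neither the promoter behind the deletion nor the part of the gene removed. Cells grew for 3 days in a serum-free keratinocyte medium with added epidermal growth factor, insulin, pituitary extract, hydrocortisone and 0.05 mM calcium chloride, were reseeded at 2000000 cells on collagen and were taken the next day. RNA of 2 plates of a genotype was pooled for each array, so there were 2 Glut1-deficient and 2 WT Affymetrix MTA-1_0 arrays.

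During division, kinesins separate the spindle poles, move and align chromosomes, trim microtubule ends and build the midzone at which the cell cleaves. Most genes for these motors are transcribed periodically, with a peak in the G2 and M phases. Their level in a culture can therefore depend on the share of dividing cells, which the arrays do not measure. Transport kinesins instead carry organelles, vesicles, endosomes and ciliary cargo in dividing and resting cells alike, and several are used mainly by neurons. Keratinocytes divide in the basal layer of the epidermis and leave the cycle as they differentiate.

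Values are log2 signals, so a difference of 1 is a 2-fold change. The background floor of an array was the 95th percentile of its 23 background control rows and lay at 4.87 and 4.63 on the Glut1-deficient arrays, against 4.36 and 4.70 on the WT arrays. Slc2a1 itself had signals of 12.09 and 12.01 on the Glut1-deficient arrays, against 13.26 and 13.40 on the WT arrays. It fell by 1.28 (SE 0.10, limma adjusted p = 0.00754), and the adjusted p was 0.0508 without Glut1-deficient replicate 1. Whether its probes lie in the deleted part is not stated, so its remaining signal says nothing about the protein. Of 8 keratinocyte markers, 7 lay above the floor on all 4 arrays, and the exception was Krt15. Col17a1 was lower in Glut1-deficient cells (log2 fold change -0.86, limma adjusted p = 0.0181) and Dsg3 was higher (0.92, limma adjusted p = 0.0157). The others did not pass, with negative estimates for Krt5, Krt14, Krt15, Itga6 and Itgb4 and a positive one for Trp63. The median log2 fold change of the 8 was -0.38. Of 5 immune markers, Ptprc, Cd207, Cd3e and H2-Aa lay at or below the floor on all arrays, and Cd68 was at 9.30 and 10.20 on the Glut1-deficient arrays, against 7.76 and 7.85 on the WT arrays (limma adjusted p = 0.0267). All 5 measured fibroblast markers had higher means on the Glut1-deficient arrays. Lum and Col3a1 lay at or below the floor on all arrays, however, and Col1a2 cleared it on only 2. Of the 5 only Dcn passed (limma adjusted p = 0.0250). Dcn was at 5.28 and 5.97 on the Glut1-deficient arrays, against 4.08 and 3.82 on the WT arrays, where it lay at or below the floor. The summed signal of 7 melanocyte markers was 12.38 and 11.14 on the Glut1-deficient arrays, against 10.55 and 10.05 on the WT arrays (log2 of the sum). This sum was not tested, and Tyrp1 made up most of it. Tyrp1 was at 12.11 and 10.80 on the Glut1-deficient arrays, against 10.25 and 9.67 on the WT arrays (limma adjusted p = 0.136). Of the 7 only Pmel passed (limma adjusted p = 0.0341), and Sox10 had overlapping groups. Of 3 endothelial markers, Kdr was higher (10.14 and 9.51 on the Glut1-deficient arrays, against 6.11 and 6.34 on the WT arrays), Pecam1 was at 4.37 and 4.26 on the Glut1-deficient arrays, against 4.60 and 4.66 on the WT arrays, and Cdh5 lay at or below the floor on all arrays. Arrays of a genotype correlated at 0.997 (Glut1-deficient) and 0.998 (WT) across the rows, against 0.989 to 0.992 between genotypes.

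Mitotic kinesin transcripts were lower in Glut1-deficient keratinocytes, and transport kinesins showed no common direction. Of the 13 mitotic members, 9 fell, none rose and 4 did not pass a limma adjusted p of 0.05, where 3.11% of the 30604 rows tested were called lower and 4.11% higher (7.22% in either direction). When the whole table of 72688 rows was fitted, control rows included, 0 of these 9 calls were left, and 6 were left when only the control rows were taken out of it. The median log2 fold change of the mitotic list was -1.23, or -1.29 over the 12 members above the floor, beside -0.01 over all rows. Of the 13 transport members, 1 fell, 2 rose and 10 did not pass, with a median of 0.08. None of the 11 other kinesins passed, and their median was 0.00. An unadjusted limma p under 0.05 was found for 2 of them, beside 6720 of the 30604 rows tested. The rows above the floor on all 4 arrays are a closer background for expressed genes, and of these 14194 rows 6.14% were called lower and 8.26% higher. The Col17a1, Dsg3, Dcn, Cd68 and Kdr signals given above moved with genotype too. The melanocyte sum, itself untested, was higher on both Glut1-deficient arrays. The part of these signals in the counts was not tested. In bulk RNA, fewer dividing cells and less of these transcripts per cell cannot be told apart. Nothing in the labels says that the 2 samples of a genotype came from separate litters or preparations, so p-values measure the spread between these pooled samples, which may be partly technical.

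**Figure D1:**
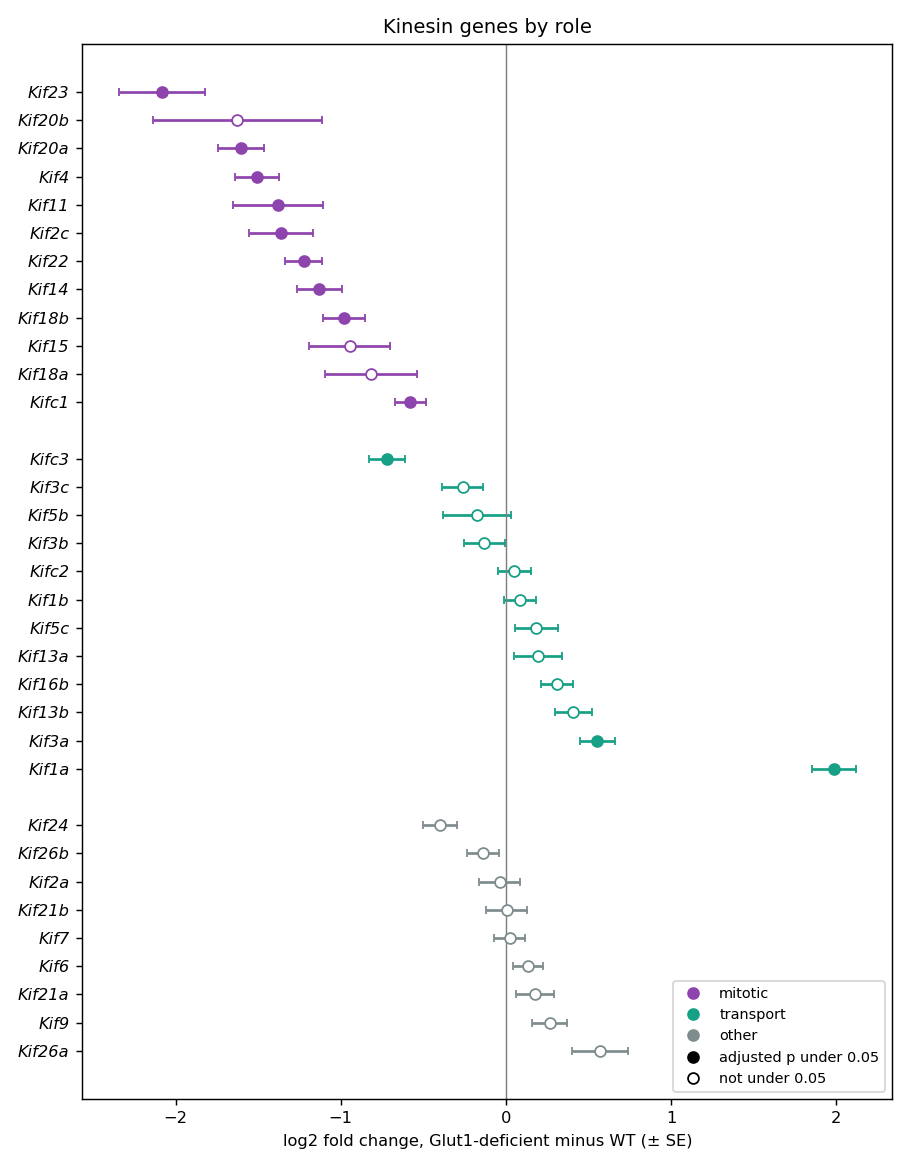
Log2 fold change, Glut1-deficient minus WT, of the kinesin genes other than the 4 at or below the floor on all arrays (Kif2b, Kif5a, Kif19a and Kif12), with its moderated SE as a bar, for mitotic (purple), transport (green) and other (grey) kinesins, with filled points for a limma adjusted p under 0.05. All 12 mitotic members shown lie left of 0, down to -2.08 for Kif23, while transport members lie on both sides of it, from -0.72 for Kifc3 to 1.99 for Kif1a.

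Kinesins of the cleavage midzone were among the mitotic members with the largest differences. Kif23, which joins Racgap1 in the centralspindlin complex that bundles midzone microtubules and calls the cleavage furrow, had signals of 10.20 and 10.92 in Glut1-deficient cells, against 12.80 and 12.48 in WT cells. The groups stood apart by more than the spread within either, and Kif23 fell by 2.08 (SE 0.26, limma adjusted p = 0.0183), a ratio of 0.236 to WT. Kif20a, the motor that brings the Aurora B complex to the midzone, was at 11.10 and 11.43 in Glut1-deficient cells and at 12.84 and 12.90 in WT cells. Its fold change was -1.60 (SE 0.14, limma adjusted p = 0.00834). Kif4, a chromosome-bound kinesin that works with Prc1 to set midzone length, was at 9.06 and 9.37 in Glut1-deficient cells, against 10.74 and 10.71 in WT cells. Kif4 fell by 1.51 (SE 0.13, limma adjusted p = 0.00849), and its WT arrays differed by 0.02. Kif14, which recruits citron kinase (gene Cit) for abscission, was at 8.05 and 8.37 in Glut1-deficient cells and at 9.31 and 9.37 in WT cells, a fold change of -1.13 (SE 0.14, limma adjusted p = 0.0168). Kif20b, a late cytokinesis motor, did not pass: it was at 8.12 and 9.56 in Glut1-deficient cells, against 10.84 and 10.10 in WT cells (log2 fold change -1.63, SE 0.51, limma adjusted p = 0.147). Its groups did not overlap, which held for 25.8% of all rows in that direction. Its Glut1-deficient arrays lay 1.45 apart, the widest gap of the 37 members.

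Of the motors that set up the spindle and move chromosome arms, Kif11, Kifc1 and Kif22 fell and Kif15 did not pass. Kif11, the kinesin-5 that pushes the spindle poles apart, had signals of 10.79 and 11.57 in Glut1-deficient cells, against 12.70 and 12.43 in WT cells. Its fold change of -1.38 (SE 0.27) passed by a narrow margin (limma adjusted p = 0.0489). Kif15, which can keep spindles bipolar when Kif11 is inhibited, was at 8.07 and 8.74 in Glut1-deficient cells and at 9.51 and 9.19 in WT cells, and did not pass (log2 fold change -0.95, SE 0.25, limma adjusted p = 0.0947). Kifc1, the kinesin-14 that focuses spindle poles, was at 7.37 and 7.36 in Glut1-deficient cells, against 7.91 and 7.98 in WT cells. It fell by 0.58 (SE 0.09, limma adjusted p = 0.0301), the smallest fold change among the 9 mitotic kinesins that passed. Kif22, a chromosome-binding motor that pushes chromosome arms outward, was at 7.54 and 7.74 in Glut1-deficient cells and at 8.84 and 8.88 in WT cells (log2 fold change -1.23, SE 0.11, limma adjusted p = 0.00909). The Kifc1 row may share sequence with its near-identical relative Kifc5b, whose own row was at 6.35 and 6.31 in Glut1-deficient cells, against 6.71 and 6.69 in WT cells (limma adjusted p = 0.0832), so signal of these 2 genes may not be separable.

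Microtubule-shortening kinesins of mitosis gave mixed calls. Kif2c, the kinesin-13 that removes wrong attachments at centromeres, was at 8.92 and 9.46 in Glut1-deficient cells, against 10.50 and 10.60 in WT cells, and fell by 1.36 (SE 0.19, limma adjusted p = 0.0232). Kif18b, which shortens astral microtubules together with Kif2c, was at 7.89 and 8.14 in Glut1-deficient cells and at 8.93 and 9.06 in WT cells, and fell by 0.98 (SE 0.13, limma adjusted p = 0.0189). Kif18a, which damps the swings of aligned chromosomes, was at 6.52 and 7.35 in Glut1-deficient cells, against 7.84 and 7.66 in WT cells. Its fold change of -0.81 (SE 0.28) did not pass (limma adjusted p = 0.171). Kif2b, a relative of Kif2c, lay at or below the floor on all 4 arrays, and no fold is given for it.

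**Figure D2:**
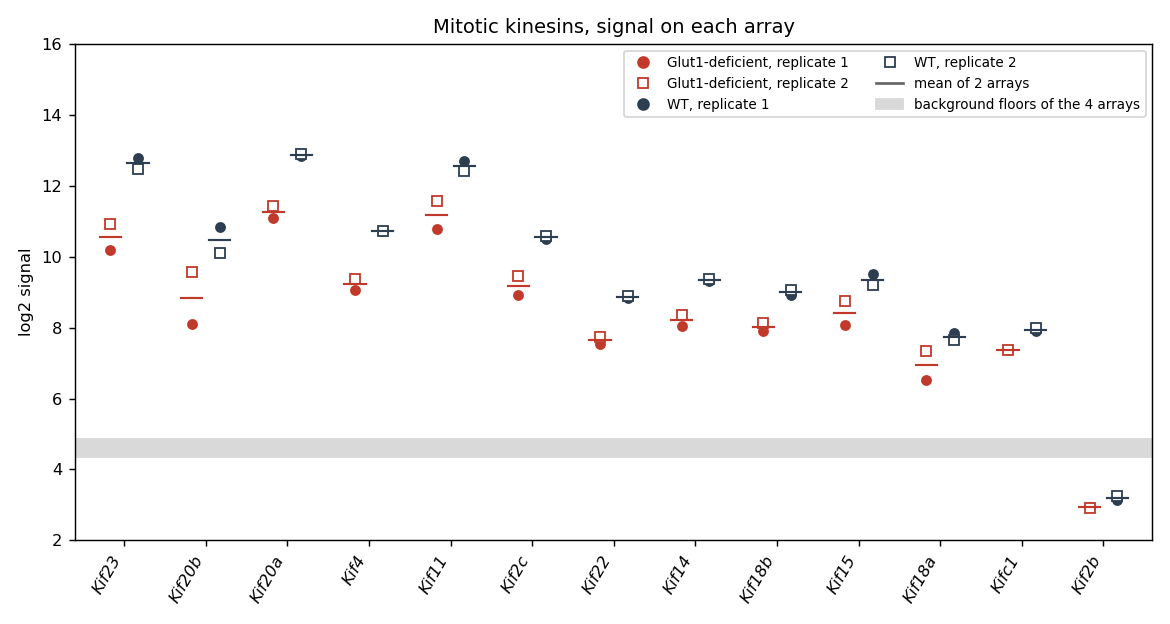
Log2 signal of the 13 mitotic kinesins on each array, with Glut1-deficient arrays in red on the left and WT arrays in dark blue on the right of each gene (replicate 1 filled circle, replicate 2 open square, bar at the mean of 2 arrays). The grey band spans the background floors, 4.36 to 4.87, and only Kif2b lies at or below it. In Kif20b, Kif18a, Kif11, Kif23 and Kif15 the red points are far apart, while those of Kifc1 coincide.

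The 2 Glut1-deficient arrays did not show the difference to the same extent. Replicate 1 was lower than replicate 2 for 11 of the 13 mitotic kinesins, with Kifc1 and Kif2b as the exceptions, whereas over all rows it was lower in 12092 of 30604. Over the 12 mitotic members above the floor, the median difference from the WT mean was -1.48 on Glut1-deficient replicate 1 and -0.98 on replicate 2. On each of these arrays all 12 lay below the WT mean, with differences from -2.44 to -0.57 on replicate 1 and from -1.72 to -0.40 on replicate 2. WT replicate 1 exceeded replicate 2 for 6 of the 13, with gaps of 0.74 for Kif20b and 0.32 for Kif15. Glut1-deficient replicate 1 also had the higher melanocyte marker sum given above. The part of either in the result was not tested.

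With 1 array left out, the fits had 1 residual degree of freedom and took the lone array of a genotype to vary like the other group. Between 2 and 9 mitotic kinesins then passed. Kif20a and Kif4 passed in each of the 4 such fits, with limma adjusted p from 0.0269 to 0.0374 and from 0.0276 to 0.0422. Without Glut1-deficient replicate 1 they were the only mitotic kinesins that passed, and Kif23 had a fold change of -1.72 with an adjusted p of 0.0537 and Kif22 one of -1.12 with 0.0518. Without WT replicate 1, 3 mitotic kinesins passed, and without WT replicate 2, 4 did. Without Glut1-deficient replicate 2, Kif18a passed as well (limma adjusted p = 0.0397) and Kifc1 did not (0.0822). Kifc1 passed in none of the 4 fits. Directions of the 12 mitotic members above the floor were the same in all of them.

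**Figure D3:**
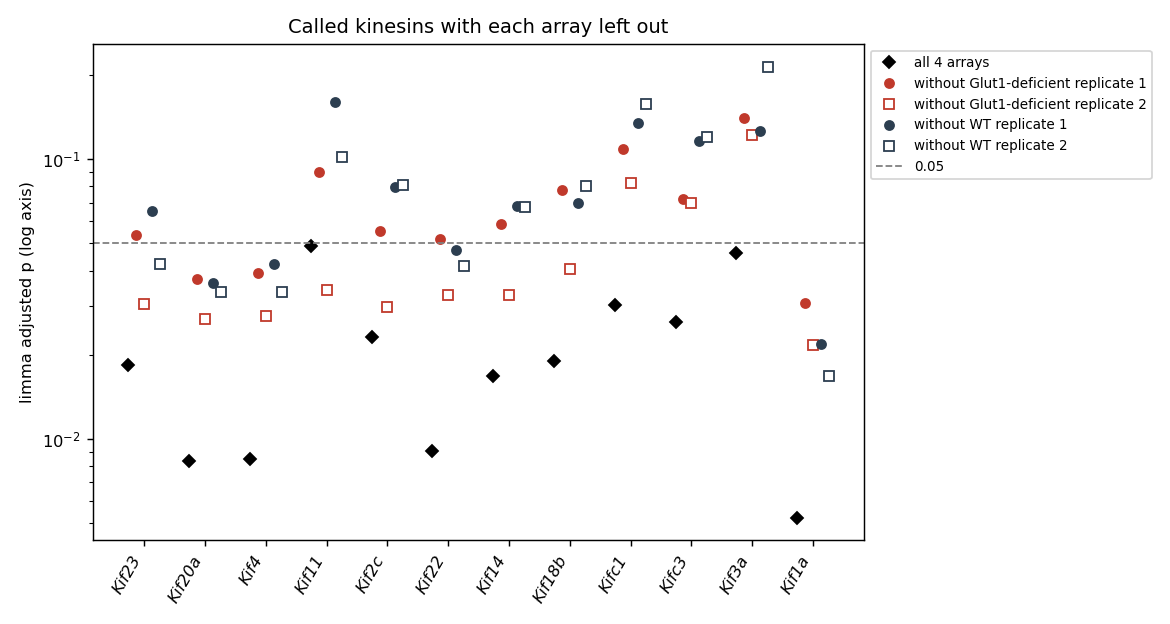
Limma adjusted p (log axis) of the 12 kinesins that passed with all 4 arrays (black diamonds) and with 1 array left out (red, Glut1-deficient array; dark blue, WT array; circle, replicate 1; square, replicate 2), with the 0.05 line dashed. Kif20a, Kif4 and Kif1a lie below the line in all 5 fits, and Kifc1, Kifc3 and Kif3a lie above it in every fit with an array left out.

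Promoters of most mitotic kinesins held short elements that the choice of members did not use. In many genes of the G2 and M phases, CCAAT boxes bound by NF-Y stand upstream of a CHR element, which is bound by DREAM and MuvB complexes and is known as a site of repression in resting cells. RefSeq windows of 250 bases before to 50 after a start site (GRCm38.p6) were matched by gene identifier for 12 of 13 mitotic, 8 of 13 transport and 9 of 11 other kinesins. They were searched on both strands for CCAAT and for the CHR letters TTTGAA and TTCGAA, and a gene with several windows counted once. CCAAT stood in 8 of the 12 mitotic genes (66.7%), in 3 of 8 transport genes and in 3 of 9 others, beside 41.1% of all genes. Kif15, Kif18a, Kif20b and Kif2c had none. CHR letters stood in 10 of the 12 mitotic genes (83.3%), in 1 of 8 transport genes, Kif1a, and in 2 of 9 others, Kif24 and Kif26b, beside 21.7% of 27025 genes with a window. Kif18a and Kif2b had none, and the match in Kif1a lay in the window of an internal start site, not in its window nearer the gene's outer boundary. Both elements stood in 7 of the 12 mitotic genes, in none of the 8 transport genes, in 2 of 9 others (22.2%) and in 9.65% of all genes. All 8 of the mitotic kinesins that passed and had a window held CHR letters, as did Kif15 and Kif20b, which did not pass. Whether these letters go with a fall was not tested. They began within 30 bases of the start site in 8 of the 12 mitotic genes (66.7%), in none of the transport genes and in 2 of 9 others (22.2%), beside 3.95% of all genes, a distance chosen after the positions were seen. Of the called genes, Kif14 and Kif2c held CHR letters farther off, first base at -228 and -103, and their windows belong to start sites inside the gene's outer boundary. These are matches of letters and do not show that a factor binds there.

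The stretches from 80 bases before to 40 after the start site are shown for the 6 mitotic kinesins that fell and held CHR letters within 30 bases, to show how the elements lie, and for Kif3a, a transport kinesin that rose, whose window also belongs to an internal start site. Capitals mark CCAAT and the CHR letters TTTGAA on either strand (ATTGG and TTCAAA where they lie on the other strand). TTCGAA occurred in none of these 7.
Kif23: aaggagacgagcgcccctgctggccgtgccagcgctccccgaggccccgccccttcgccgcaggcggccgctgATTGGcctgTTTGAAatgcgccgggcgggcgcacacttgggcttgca
Kif4: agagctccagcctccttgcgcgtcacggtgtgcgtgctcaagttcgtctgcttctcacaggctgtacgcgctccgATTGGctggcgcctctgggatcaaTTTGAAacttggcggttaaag
Kif11: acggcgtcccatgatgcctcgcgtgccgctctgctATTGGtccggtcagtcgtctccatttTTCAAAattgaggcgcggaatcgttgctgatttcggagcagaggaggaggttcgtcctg
Kif22: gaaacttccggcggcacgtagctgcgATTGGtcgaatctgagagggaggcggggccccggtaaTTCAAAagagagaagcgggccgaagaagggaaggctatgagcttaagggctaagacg
Kif18b: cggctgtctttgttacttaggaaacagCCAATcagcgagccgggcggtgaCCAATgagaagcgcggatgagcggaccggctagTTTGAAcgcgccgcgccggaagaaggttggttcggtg
Kifc1: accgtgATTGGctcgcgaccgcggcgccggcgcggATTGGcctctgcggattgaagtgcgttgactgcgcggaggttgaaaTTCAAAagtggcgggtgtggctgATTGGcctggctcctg
Kif3a: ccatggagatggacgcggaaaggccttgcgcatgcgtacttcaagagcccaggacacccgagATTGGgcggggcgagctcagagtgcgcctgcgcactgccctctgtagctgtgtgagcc
They lie at chr9:61946760-61946879 (minus strand), chrX:100625985-100626104 (plus strand), chr19:37376302-37376421 (plus strand), chr7:127042381-127042500 (minus strand), chr11:102925085-102925204 (minus strand), chr17:33890594-33890713 (minus strand) and chr11:53567289-53567408 (plus strand) of GRCm38.p6. The first base of the CHR letters, counted from the start site as 1, was at -19 in Kif11, -17 in Kif22, 2 in Kifc1, 3 in Kif23, 4 in Kif18b and 20 in Kif4. In Kif18b the CCAAT letters began at -53 and -30, in Kif11 at -45, in Kif22 at -54, in Kif23 at -7 and in Kif4 at -5, each ahead of the CHR letters, while Kifc1 had CCAAT at -74 and -45 ahead of them and at 25 after them. Kif22 and Kif4 had a further CCAAT outside the stretch shown, at -233 and -152, and Kif22 a further match of the CHR letters at -215. Kif3a had CCAAT at -18 and no CHR letters. No match of CCAAT overlapped one of the CHR letters.

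Among transport kinesins, 2 genes rose and 1 fell, and the other 10 did not pass. Kif1a, the kinesin-3 known for carrying synaptic vesicle precursors and dense-core vesicles in axons, was at 7.28 and 6.99 in Glut1-deficient cells, against 5.10 and 5.20 in WT cells, where it lay little above the floor. It rose by 1.99 (SE 0.13, limma adjusted p = 0.00523), a 3.96-fold higher signal, and passed with any 1 array left out (adjusted p from 0.0168 to 0.0307). The neuron markers Snap25, Syt1 and Rbfox3 lay at or below the floor on all 4 arrays, and Tubb3 was at 6.09 and 6.35 in Glut1-deficient cells, against 6.76 and 6.80 in WT cells. Kif1a was higher on Glut1-deficient replicate 1, the array with the higher melanocyte marker sum. On the WT arrays it was lower on replicate 1 (5.10 against 5.20), where that sum was higher (10.55 against 10.05). The part of melanocytes in the Kif1a signal was not tested.

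Kif3a, the kinesin-2 motor of intraflagellar transport, was at 8.76 and 8.81 in Glut1-deficient cells, against 8.32 and 8.14 in WT cells. It rose by 0.55 (SE 0.11) at a limma adjusted p of 0.0462, passed with none of the 4 arrays left out (0.123 to 0.214) and had an adjusted p of 0.0815 with the replicate number as a block. Its partners in the same motor did not pass. Kif3b had a log2 fold change of -0.13 with overlapping groups (95% interval -0.44 to 0.18), and Kifap3, the subunit that links the pair to cargo, was at 9.78 and 9.55 in Glut1-deficient cells, against 9.78 and 9.92 in WT cells. Kif3c, the alternative partner of Kif3a, was at 8.12 and 7.85 in Glut1-deficient cells and at 8.25 and 8.25 in WT cells (log2 fold change -0.26, 95% interval -0.58 to 0.05). Differences between these subunits were not tested. Kifc3, a minus-end motor of epithelial junctions and apical transport, was at 7.10 and 6.91 in Glut1-deficient cells, against 7.70 and 7.74 in WT cells. It fell by 0.72 (SE 0.11, limma adjusted p = 0.0263) and also lost its call whichever array was left out (0.0698 to 0.120).

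The general cargo motors did not pass. Kif5b, the kinesin-1 heavy chain used by most cell types, was at 12.80 and 13.29 in Glut1-deficient cells, against 13.38 and 13.06 in WT cells, with overlapping groups. Its interval for the log2 fold change ran from -0.70 to 0.35 (95%). Kif1b, which carries mitochondria and vesicles, was at 10.08 and 10.06 in Glut1-deficient cells and at 10.04 and 9.94 in WT cells, with an interval from -0.16 to 0.33. These intervals do not reach a log2 change of -1, which the estimates of 7 mitotic kinesins that fell exceeded. Intervals of some of those 7 also took in smaller changes, as for Kif11 (95% interval -2.07 to -0.69). Differences between genes were not tested. The endosome motors had positive estimates: Kif13a 0.19, Kif16b 0.31 and Kif13b 0.41, of which Kif16b and Kif13b had groups that did not overlap (limma adjusted p = 0.140 and 0.106), as 23.8% of all rows did in the upward direction. Kif5a, the neuronal kinesin-1 chain, lay at or below the floor on all arrays, and Kifc2 and Kif5c cleared it on only 1 and 2 of them.

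**Figure D4:**
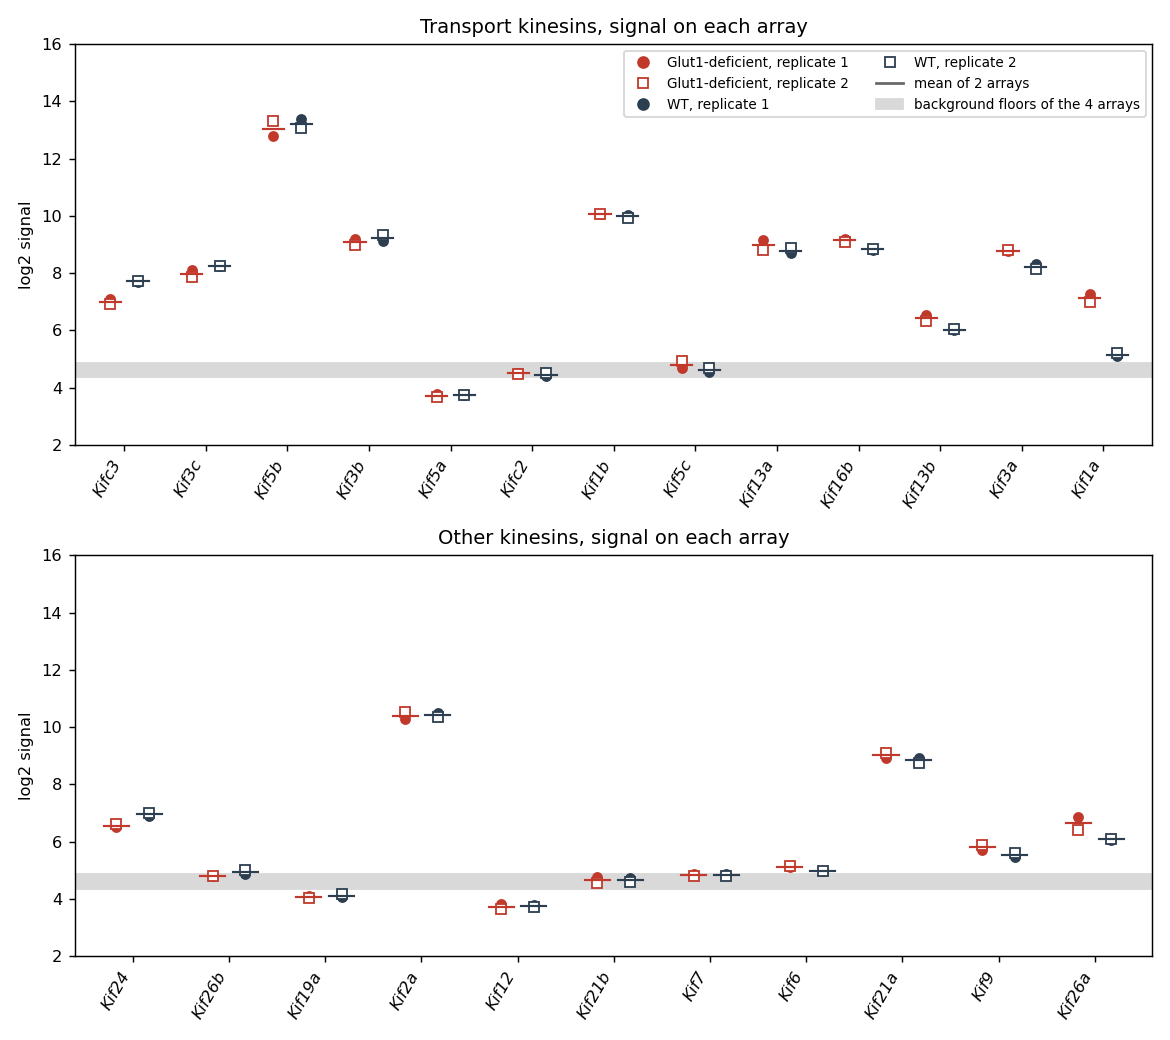
Log2 signal of the 13 transport kinesins (upper panel) and 11 other kinesins (lower panel) on each array, drawn as for the mitotic kinesins with Glut1-deficient arrays on the left of each gene. The separation of Kif1a, 7.13 against 5.15 on average, is the widest.

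The other kinesins include the depolymerase Kif2a, the microtubule growth inhibitors Kif21a and Kif21b, and kinesins of cilia and centrioles. Kif2a, a close relative of Kif2c that also acts outside mitosis, was at 10.27 and 10.51 in Glut1-deficient cells, against 10.49 and 10.37 in WT cells (log2 fold change -0.04, 95% interval -0.36 to 0.28). Kif21a was at 8.94 and 9.10 in Glut1-deficient cells and at 8.92 and 8.76 in WT cells. Kif24, which caps centrioles and restrains the cilium, was at 6.50 and 6.61 in Glut1-deficient cells, against 6.89 and 7.01 in WT cells. Its fold change of -0.40 (SE 0.10) had groups that did not overlap, as 25.8% of all rows had in that direction, and did not pass (limma adjusted p = 0.0930). Kif26a, an atypical kinesin without motor activity, was at 6.88 and 6.42 in Glut1-deficient cells and at 6.06 and 6.11 in WT cells, and did not pass either (log2 fold change 0.57, SE 0.17, limma adjusted p = 0.126). Kif9 and Kif6, both of motile cilia, had fold changes of 0.26 and 0.13, and Kif7, the ciliary regulator of Hedgehog signalling, one of 0.02. Kif19a and Kif12 lay at or below the floor on all 4 arrays, and Kif26b and Kif21b on at least 1.

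Partners of the mitotic kinesins were lower too. Of 20 listed partners, all measured, 13 fell, none rose and 7 did not pass, with a median log2 fold change of -1.07. Over all rows, 3.11% were called lower and 4.11% higher. The partner list was chosen with earlier results of these data known, so its counts are not an independent test. For partners too, bulk RNA cannot separate fewer dividing cells from less transcript per cell. Racgap1, the centralspindlin partner of Kif23, was at 7.67 and 7.78 in Glut1-deficient cells, against 8.86 and 8.92 in WT cells, and fell by 1.17 (SE 0.10). Cit, the kinase that Kif14 recruits, was at 6.91 and 7.05 in Glut1-deficient cells and at 8.19 and 8.23 in WT cells, and fell by 1.22 (SE 0.10). Prc1, the partner of Kif4, fell by 1.12 and the mitotic kinase gene Plk1 by 1.35. Their limma adjusted p-values were between 0.00756 and 0.0125. Without Glut1-deficient replicate 1 those of Cit, Racgap1 and Prc1 were 0.0508, 0.0524 and 0.0562, that of Prc1 was 0.0540 and 0.0531 without WT replicate 1 or 2, and that of Plk1 was 0.0525 without WT replicate 1.

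Cenpe, the kinesin-7 of the kinetochore, does not carry a Kif name and entered through the partner list, and it is named here for its kinship, outside the naming rule. It was at 8.88 and 10.42 in Glut1-deficient cells, against 11.63 and 10.88 in WT cells. Its fold change was -1.61, but with Glut1-deficient arrays 1.53 apart and an SE of 0.54 it did not pass (limma adjusted p = 0.165). As with Kif20b, replicate 1 was the lower Glut1-deficient array and the higher WT array.

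Partners of the transport kinesins and the opposite motor, dynein, gave few calls. Of 17 measured of 20 transport partners none passed, with a median of 0.04. An unadjusted limma p under 0.05 was found for 3 of them, beside 6720 of the 30604 rows tested. The 4 with the smallest p were Trak2, a mitochondrial adaptor (log2 fold change -0.52), the kinesin-1 adaptors Fez1 (near background, no fold given) and Fez2 (-0.35), and Plekhm2, a lysosomal adaptor (0.31). Their limma adjusted p-values ran from 0.0570 to 0.271. Klc1, the kinesin-1 light chain, was at 10.58 and 10.36 in Glut1-deficient cells, against 10.48 and 10.47 in WT cells. Of 22 measured of 25 dynein and dynactin genes 1 fell, 1 rose and 20 did not pass, with a median of -0.02. That is 4.5% in each direction, near the 3.11% of all rows called lower and the 4.11% called higher. Nde1, a dynein regulator with a role in mitosis, fell by 0.85 (SE 0.11, limma adjusted p = 0.0186), and Dync1h1, the dynein heavy chain, rose by 0.75 (SE 0.11, limma adjusted p = 0.0247). Both lost their calls without Glut1-deficient replicate 1 and without WT replicate 1 or 2 (0.0792 to 0.114). Dync1i2 and Ndel1 had fold changes of -0.39 and -0.38 and did not pass (limma adjusted p = 0.0756 and 0.0848).

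**Figure D5:**
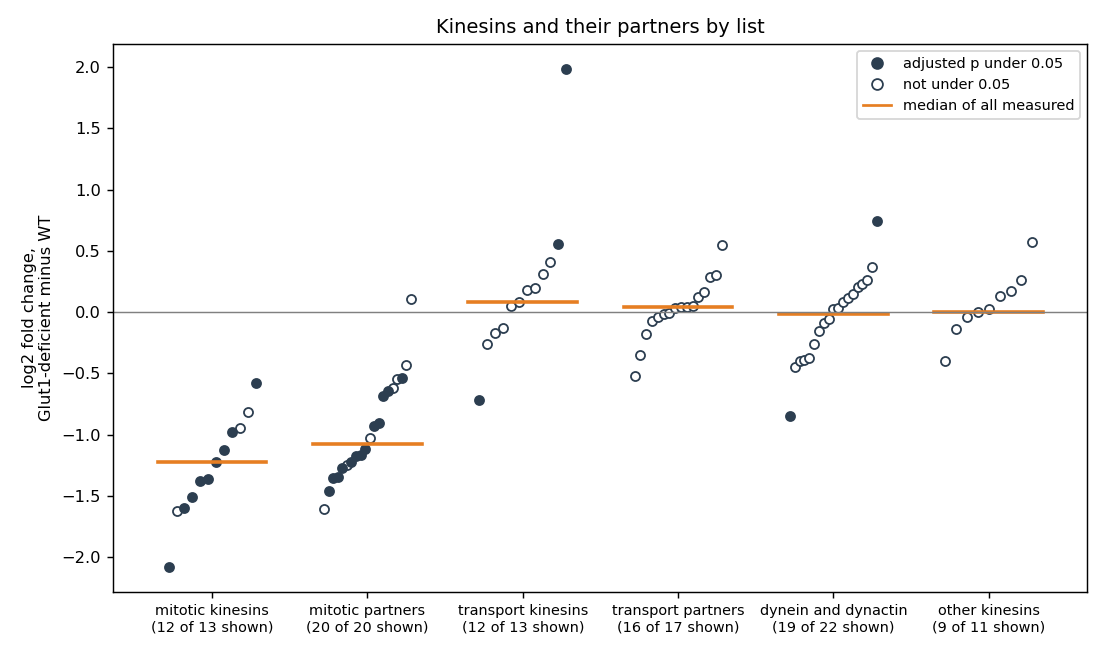
Log2 fold change, Glut1-deficient minus WT, of the genes in 6 lists, sorted within a list and without those at or below the floor on all arrays, with filled points for a limma adjusted p under 0.05 and an orange line at the median of all measured genes of the list. The mitotic kinesins and their partners centre on -1.23 and -1.07, and the other 4 lists on values from -0.02 to 0.08.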

How the data were processed

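RNA of 4 samples was measured on single-channel arrays. The authors deposited log2 signals, 1 for each transcript cluster. The submitters' processing notes name RMA and Affymetrix Expression Console, with no versions, and the labels name gene-level SST-RMA. RMA equalises array distributions, so a shift shared by most genes would not show. Of 72688 rows, the 30604 with 1 gene symbol were compared with limma 3.58.1 (lmFit, eBayes defaults, R 4.3.3; two-sided; Benjamini-Hochberg over these rows), without a block, since plates were pooled at random. The highest row by mean stands for a gene. RefSeq (GRCm38.p6) matched 22818 rows and updated 827 symbols. The procedure was tested on simulated data. Depth does not apply to arrays, and their number limits precision. Alternatives covered normalization, rows tested, variance moderation, block, arrays left out and list membership. Members, lists and naming rule (all kinesins, Slc2a1, and the 4 partners of smallest p per list) were chosen with earlier results of these data known. Further genes named as markers or subunits of the same motor (Kifap3, Klc1, Cenpe, Kifc5b) fall outside that rule.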

Additional observations from a re-analysis of the deposited data

How the results depend on the processing

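No kinesin that passed changed direction under any alternative. With 1 array left out, 2 to 9 kinesins were lower and 1 was higher. These counts were 2 to 9 for mitotic kinesins lower, 0 for transport kinesins lower and 1 for transport kinesins higher, namely Kif1a. With the whole table fitted, none of the 12 called kinesins passed (0 lower and 0 higher, mitotic and transport lists included), and 74 rows passed in all instead of 2209. The adjusted p-values of the 12 then ran from 0.0516 for Kif1a to 0.175 for Kif3a. Without the control rows, a fit chosen after seeing the data, 6 kinesins were lower and 1 higher, 0 transport kinesins were lower and 1 was higher, and 1033 rows passed in all. The cause was not tested. With an intensity trend and robust moderation, 1 kinesin, of the transport list, was higher, and Kif11 (adjusted p = 0.0545) and Kif3a (0.0566) lost their calls. Replicate numbers do not mark shared animals, and same-numbered arrays did not deviate together (correlation of deviations from group means -0.23). With 2 arrays per genotype, differently numbered arrays give the same value with the sign reversed, so it cannot exclude shared structure. A block across replicate numbers was not fitted. With a replicate block, 1 kinesin, of the transport list, was higher, Kifc1 (adjusted p = 0.0622) and Kif3a lost their calls, and the block lost no other kinesin. Quantile normalization, rows at or above the median mean, the brightest row per gene and the mean of rows kept all 12 calls. Counting Kif2a as mitotic moved that median to -1.18. With 2 arrays per genotype, a kinesin that did not pass is not shown to be unchanged.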

Other observations

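Rows that name a kinesin together with another gene were not members. The row of Kif1c and Mir6925 was at 11.36 and 10.94 in Glut1-deficient cells, against 11.02 and 11.08 in WT cells, and that of Sh2d5 and Kif17 at 6.00 and 5.79 in Glut1-deficient cells, against 5.74 and 5.62 in WT cells. The pseudogene rows Kif22-ps and Kif4-ps were at 4.08 and 3.92 and at 3.90 and 3.93 in Glut1-deficient cells, against 4.19 and 4.24 and 3.36 and 3.51 in WT cells, all at or below the floors of their arrays.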
